A study of Homo sapiens with 12 samples.

Results

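The 44 genes described here encode proteins of the lysosome membrane, the vacuolar proton pump (V-ATPase), lysosomal hydrolases with their helpers, and the core of autophagy, together with the transcription factors and small GTPases that control them. They were chosen by symbol from the deposited count table, which lists 22545 genes, and all 44 were found and passed the filter on low counts, with at least 1 count in each of the 12 libraries. The RNA came from HaCaT, an immortalised human keratinocyte line that is labelled as wild type in every sample, and the libraries form 4 groups of 3. Cells of the first were left untreated, those of the second received M5, those of the third M5 plus lefamulin and those of the fourth M5 plus retapamulin. M5 usually denotes a blend of inflammatory cytokines under which cultured keratinocytes come to resemble psoriatic skin, and lefamulin and retapamulin are pleuromutilin antibiotics, which have the same fused-ring core and unlike side chains. No source used here gives the composition of M5, the doses, times or solvent, no group received a pleuromutilin without M5, and the extraction text describes mouse epidermis, which goes against the HaCaT label. In what follows the groups are called untreated, M5, lefamulin and retapamulin, and both compound groups always include M5.

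As background, the lysosome breaks down material delivered by endocytosis and autophagy. The V-ATPase acidifies it: a cytosolic V1 sector hydrolyses ATP and a membrane V0 sector moves protons. Autophagy wraps cytoplasm in a double membrane, under the control of the ULK kinase and a lipid kinase complex with Beclin, and hands it to lysosomes through proteins of the ATG8 family. The kinase mTORC1 sits on the lysosome when amino acids are plentiful, held there by Rag GTPases, and keeps the MiT/TFE transcription factors TFEB, TFE3 and MITF out of the nucleus. When mTORC1 signalling through the Rags falls, these factors bind CACGTG-type motifs in the promoters of many lysosome and autophagy genes.

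Library depth was even, at 35110519 to 37520999 counts, and 17009 to 17955 genes had a count. Levels within a gene are given as CPM, counts relative to library sizes scaled by the TMM method, and levels between genes as the deposited FPKM, which are per gene length. Differences are log2 fold changes from edgeR's quasi-likelihood test, and a gene was called at an adjusted p under 0.05 over the 14207 genes tested. KRT5 was counted 14071 to 65084 times per library and TP63 2764 to 8860 times, while KRT14 was low at 14 to 348 counts. The summed level of the 5 keratinocyte markers was 2754 to 2834 CPM untreated, 1869 to 1948 with M5, 2054 to 2082 with lefamulin and 2123 to 2141 with retapamulin, with its members moving in different directions. From M5 to lefamulin and retapamulin the mean level went from 637 to 454 and 437 CPM for KRT5 and from 228 to 114 and 86.5 for TP63, but from 338 to 650.4 and 661 for CDH1 and from 715 to 849 and 946 for DSP; their part in the results was not tested. In bulk RNA a change in the number of cells that express a gene and a change per cell cannot be told apart.

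Most of the 44 genes were higher with either compound than with M5 alone. M5 itself raised 26 of them and lowered 6, where 28.3% of all genes tested rose and 26.9% fell. With lefamulin 36 were higher and 2 lower than with M5, against 33.6% and 34.3% of all genes. With retapamulin 37 were higher and 3 lower than with M5, against 34.1% and 38.0%. The median log2 fold change of the 44 genes was 0.16 for M5 against untreated, 0.47 for lefamulin against M5 and 0.58 for retapamulin against M5, and over all genes tested it was -0.02, -0.000746 and -0.05. Most changes were small. In all, 5 genes rose and 1 fell at least 2-fold with lefamulin (9.09% and 4.91% of all genes tested), 8 rose and 2 fell so with retapamulin (9.81% and 8.66%), and 1 rose and 1 fell so with M5 (5.07% and 5.53%). The lefamulin and retapamulin comparisons use the same 3 M5 libraries, so their values stand side by side and are not independent of each other.

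**Figure D1:**
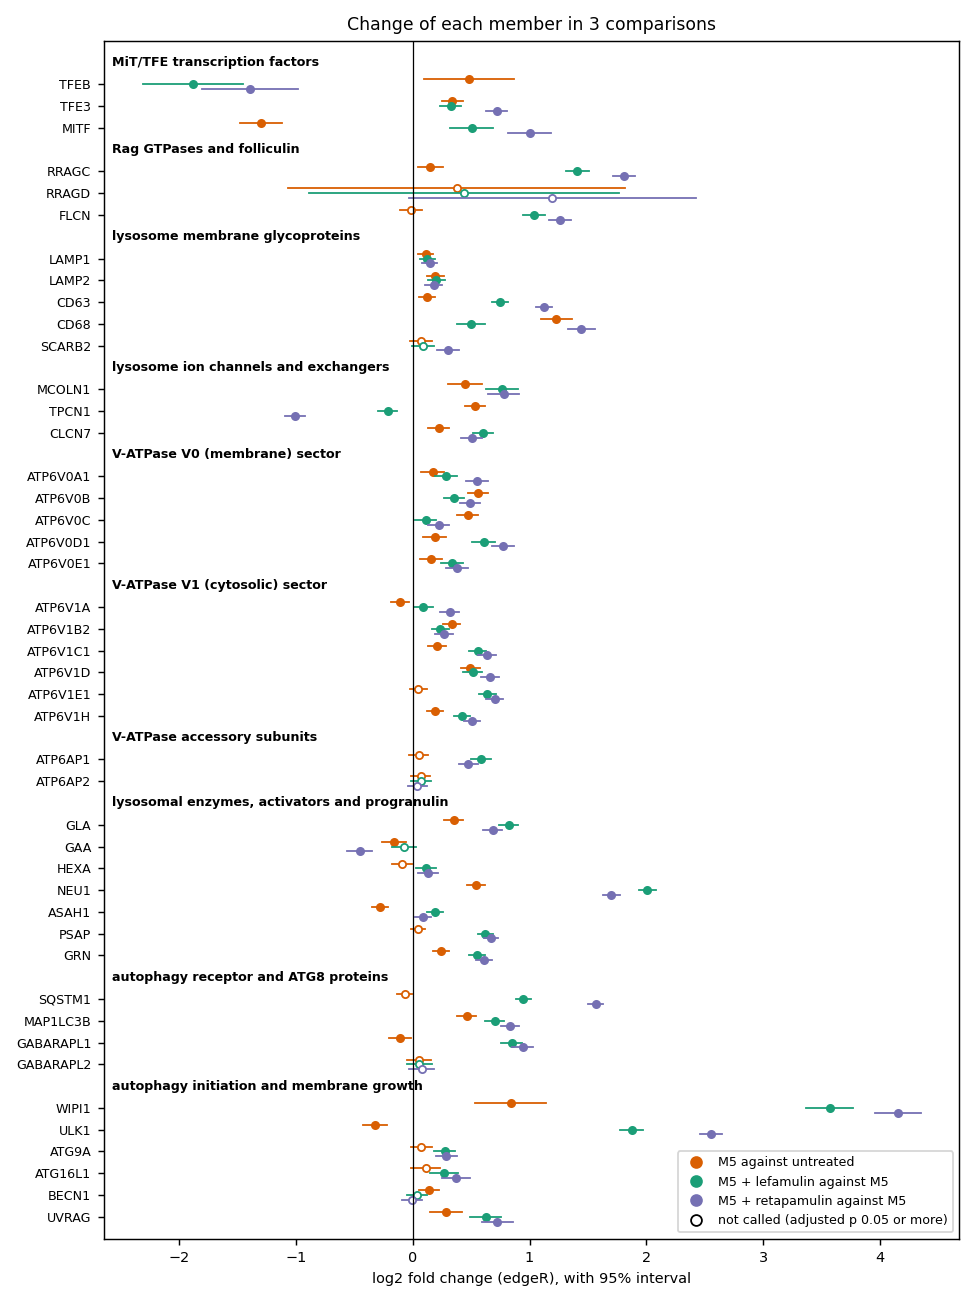
Log2 fold change (x axis, edgeR, with 95% interval) of each of the 44 genes, grouped by role, for M5 against untreated (orange), lefamulin against M5 (green) and retapamulin against M5 (purple). Filled points were called at an adjusted p under 0.05; WIPI1, ULK1, NEU1 and RRAGC lie farthest to the right for both compounds and TFEB farthest to the left.

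The M5 counts leaned on the scaling of the libraries, for the 44 genes and for all genes tested. On library totals alone M5 raised 16 and lowered 10 of the 44 genes. It raised 2675 and lowered 5823 of the 14207 genes tested, in place of 4022 and 3817. The median log2 fold change of all genes tested was then -0.14 and that of the 44 genes 0.05, in place of -0.02 and 0.16. For the compounds the totals gave 33 higher and 3 lower with lefamulin and 32 higher and 5 lower with retapamulin. The medians were 0.42 and 0.44 for the 44 genes and -0.05 and -0.19 for all genes. Of the 14207 genes tested, 4385 were then higher and 5395 lower with lefamulin, and 3942 higher and 6586 lower with retapamulin. Among all called genes the share that was higher moved from 51.3% to 31.5% for M5 against untreated.

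As a share of all counts, the 44 genes together took 0.458% to 0.464% in untreated libraries, 0.461% to 0.467% with M5, 0.645% to 0.656% with lefamulin and 0.666% to 0.675% with retapamulin. The untreated and M5 ranges overlapped, and every library with a compound lay above them. This share does not depend on TMM scaling, and a few abundant genes carry much of it. PSAP, SQSTM1 and NEU1 made up 40.2% of the gain with lefamulin, and SQSTM1, PSAP and CD63 made up 45.4% of the gain with retapamulin. PSAP, the precursor of the saposins that help hydrolases reach sphingolipids, also had the highest FPKM of the 44 genes in every group, from 209 with M5 to 311 with lefamulin, and RRAGD had the lowest.

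Members of the MiT/TFE family moved in different directions. TFEB, often described as the master regulator of lysosome genes, had 3.32, 3.24 and 2.95 CPM in untreated libraries, 5, 4.18 and 4.13 with M5, 1.55, 0.875 and 1.17 with lefamulin and 1.42, 1.86 and 1.78 with retapamulin. All 6 libraries with a compound lay below all 6 without one. TFEB mRNA was 1.88 lower on the log2 scale with lefamulin than with M5 (SE 0.21, adjusted p = 1.7e-08 by edgeR) and 1.39 lower with retapamulin (SE 0.20, adjusted p = 1.0e-06). The gene was scarce, with 31 to 187 counts per library. Its rise with M5 over untreated (log2 fold change 0.48, SE 0.19, adjusted p = 0.032 by edgeR) lost its call on library totals (adjusted p = 0.0968) and without untreated replicate 2 (adjusted p = 0.0521), untreated replicate 3 (adjusted p = 0.0892) or M5 replicate 1 (adjusted p = 0.134).

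MITF, best known from melanocytes and osteoclasts, had 24.1, 23.2 and 25.8 CPM in untreated libraries, 8.77, 9.45 and 11.5 with M5, 14.5, 14.6 and 13 with lefamulin and 20.5, 19.9 and 19 with retapamulin. Untreated libraries were highest and M5 libraries lowest, the compound groups lay between them, and no groups overlapped. M5 lowered MITF (log2 fold change -1.30, SE 0.09, adjusted p = 2.6e-12 by edgeR), and it was higher than with M5 alone both with lefamulin (log2 fold change 0.51, SE 0.09, adjusted p = 2.2e-05) and with retapamulin (log2 fold change 1.00, SE 0.09, adjusted p = 2.1e-10). Of the 5 melanocyte markers 4 were in the table, where MLANA was counted 0 to 2 times and SOX10 0 to 1 times per library; the summed level of the 4 was 1.28 to 2.44 CPM untreated, 0.989 to 1.15 with M5, 1.11 to 1.48 with lefamulin and 0.495 to 0.915 with retapamulin. TFE3, the most abundant of the family at 22.3 to 38.9 FPKM as group means, was singled out after its values were seen. Its level was 67.8 ± 3.82 CPM (SD, n = 3) untreated, 85.7 ± 4.34 with M5, 107 ± 1.74 with lefamulin and 141 ± 4.09 with retapamulin, and no groups overlapped.

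Genes of the Rag GTPase and folliculin group rose with both compounds, apart from the scarce RRAGD. RRAGC, which encodes a Rag GTPase that pairs with RagA or RagB on the lysosome, had 35.6, 32.7 and 34.6 CPM in untreated libraries, 38.9, 35.2 and 40.2 with M5, 99.4, 103 and 101 with lefamulin and 130.4, 138 and 132 with retapamulin. Untreated and M5 libraries overlapped, lefamulin libraries were above both and retapamulin libraries above those. The level was 2.65-fold that of M5 with lefamulin (log2 fold change 1.41, SE 0.05, adjusted p = 2.2e-18 by edgeR) and 3.51-fold with retapamulin (log2 fold change 1.81, SE 0.05, adjusted p = 9.0e-21). Its small rise with M5 (log2 fold change 0.15, adjusted p = 0.013 by edgeR) was not called on library totals (adjusted p = 0.573) or without untreated replicate 2 (adjusted p = 0.0544) or M5 replicate 3 (adjusted p = 0.0768).

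FLCN encodes folliculin, a GTPase-activating protein for RagC and RagD. Its level was 44.2, 47.7 and 48.2 CPM in untreated libraries, 46.4, 44.9 and 47.3 with M5, 95.8, 92.6 and 96.2 with lefamulin and 105, 116 and 111 with retapamulin. Untreated and M5 values overlapped, and both compound groups were above them and apart from each other. On library totals FLCN was called lower with M5 than untreated, at -0.13 (adjusted p = 0.00865 by edgeR). FLCN rose 2.05-fold with lefamulin over M5 (log2 fold change 1.04, SE 0.04, adjusted p = 3.2e-16 by edgeR) and 2.40-fold with retapamulin (log2 fold change 1.26, SE 0.04, adjusted p = 4.1e-18). RRAGD, a close relative of RRAGC, had 1 to 15 counts per library, too few to show changes of this size; its log2 fold change was 0.44 (95% interval -0.89 to 1.77) with lefamulin and 1.20 (95% interval -0.03 to 2.43) with retapamulin, and neither was called. Without M5 replicate 2 the retapamulin value was 1.80 and called (adjusted p = 0.0309 by edgeR). With retapamulin RRAGD was also called higher than untreated. Its largest counts, 10, 10 and 15, were in compound libraries, and no untreated or M5 library had more than 9. RRAGD passed the filter on low counts only through those compound libraries, so these calls are no test of a rise.

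**Figure D2:**
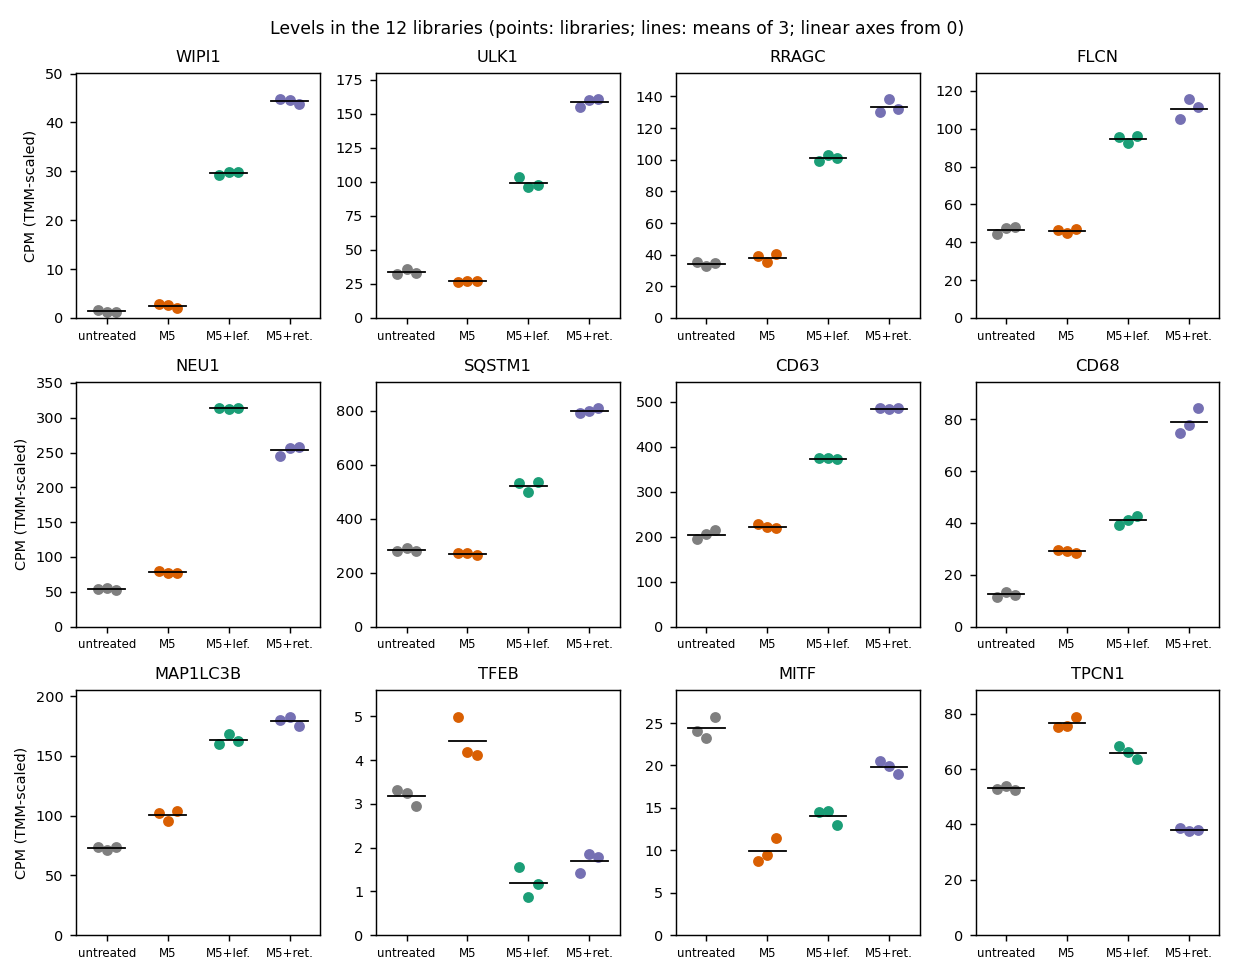
Level in each of the 12 libraries (points, CPM on TMM-scaled library sizes, linear axes from 0; lines are means of 3) of 12 of the genes. WIPI1, ULK1, RRAGC, FLCN, SQSTM1, CD63, CD68 and MAP1LC3B were highest with retapamulin, NEU1 with lefamulin, TFEB and TPCN1 with M5, and MITF in untreated cells.

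Of the 5 membrane glycoproteins, CD63 and CD68 changed most and the abundant LAMP proteins little. LAMP1, a heavily glycosylated protein that lines the inside of the lysosomal membrane, had 372, 378 and 367 CPM in untreated libraries, 404, 388 and 413 with M5, 438, 429 and 445 with lefamulin and 432, 456 and 447 with retapamulin. The untreated libraries were lowest, the M5 libraries next, and the compound groups overlapped each other above them. The steps were small: log2 fold change 0.11 for M5 over untreated (adjusted p = 0.0047 by edgeR), 0.12 for lefamulin over M5 (adjusted p = 0.0013) and 0.15 for retapamulin over M5 (adjusted p = 0.00019). On library totals the M5 step was -0.00993 (adjusted p = 0.776) and the retapamulin step 0.01 (adjusted p = 0.740). LAMP2, which also serves as the receptor of chaperone-mediated autophagy, rose by 0.20 with lefamulin and 0.18 with retapamulin, the second of which was not called on library totals (adjusted p = 0.215). SCARB2, the sorting receptor that brings glucocerebrosidase to lysosomes, rose by 0.30 with retapamulin, and its log2 fold change of 0.09 with lefamulin was not called, except without M5 replicate 3 (adjusted p = 0.0163).

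CD63 encodes a tetraspanin of late endosomes, lysosomes and exosomes. Its level was 194, 205 and 215 CPM in untreated libraries, 227, 220.4 and 219 with M5, 374, 374 and 372 with lefamulin and 486, 483 and 486 with retapamulin. Compound libraries lay well above the others, and the retapamulin libraries above the lefamulin libraries. CD63 was 1.68-fold the M5 level with lefamulin (log2 fold change 0.75, SE 0.03, adjusted p = 8.1e-16 by edgeR) and 2.18-fold with retapamulin (log2 fold change 1.13, SE 0.03, adjusted p = 1.7e-19). The rise of 0.12 with M5 was 0.00170 on library totals (adjusted p = 0.966).

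CD68, a LAMP-family glycoprotein used as a macrophage marker, had 11.5, 13.5 and 12.1 CPM in untreated libraries, 29.5, 29.2 and 28.4 with M5, 39.2, 41.2 and 42.6 with lefamulin and 74.7, 77.9 and 84.3 with retapamulin. The 4 groups did not overlap and ranked in that order from low to high. M5 raised CD68 2.35-fold (log2 fold change 1.23, SE 0.06, adjusted p = 2.3e-14 by edgeR). It rose a further 1.41-fold with lefamulin (log2 fold change 0.50, SE 0.06, adjusted p = 2.9e-08) and 2.72-fold with retapamulin (log2 fold change 1.44, SE 0.05, adjusted p = 2.0e-17). Of the 5 macrophage and leukocyte markers 4 were in the table, and PTPRC, which marks all leukocytes, had 0 to 1 counts per library. The summed level of the 4 markers was 0.0519 to 0.358 CPM untreated, 0.161 to 0.267 with M5, 0.169 to 0.221 with lefamulin and 0.175 to 0.649 with retapamulin.

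The ion channels split. MCOLN1, the calcium channel TRPML1 of the lysosome membrane, had 13.5, 13.2 and 13.9 CPM in untreated libraries, 19.4, 17.4 and 18.5 with M5, 34.4, 30.4 and 29.3 with lefamulin and 31.7, 30.5 and 32.7 with retapamulin. M5 libraries were above untreated libraries, and the compound groups overlapped each other above both. MCOLN1 rose with lefamulin (log2 fold change 0.76, SE 0.07, adjusted p = 2.3e-10 by edgeR) and with retapamulin (log2 fold change 0.78, SE 0.07, adjusted p = 1.3e-10) over M5, after a rise with M5 (log2 fold change 0.45, SE 0.07, adjusted p = 7.2e-06). CLCN7, the chloride and proton exchanger, rose in the same comparisons, by 0.22 with M5, 0.60 with lefamulin and 0.50 with retapamulin.

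TPCN1, which encodes the endolysosomal cation channel TPC1, had 52.7, 53.8 and 52.5 CPM in untreated libraries, 75.3, 75.6 and 79 with M5, 68.2, 66.1 and 63.8 with lefamulin and 38.7, 37.6 and 38.1 with retapamulin. No groups overlapped: M5 libraries were highest, lefamulin libraries between those and the untreated ones, and retapamulin libraries lowest. M5 raised TPCN1 (log2 fold change 0.53, SE 0.04, adjusted p = 4.0e-11 by edgeR). With lefamulin it was lower than with M5 by 0.21 on the log2 scale (SE 0.04, adjusted p = 4.3e-05), and with retapamulin by 1.01 (SE 0.04, adjusted p = 1.3e-16).

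Most of the 13 V-ATPase genes rose, by moderate amounts. M5 raised 9 and lowered 1 of them (median log2 fold change 0.19), lefamulin raised 12 over M5 (median 0.35) and retapamulin raised 12 (median 0.49), with none called lower than M5 under TMM scaling; ATP6AP2 was called in none of the 3 comparisons under that scaling with all libraries. Of all genes tested 28.3% rose with M5, 33.6% with lefamulin and 34.1% with retapamulin. On library totals M5 raised 5 and lowered 1 of the 13, as ATP6V0A1, ATP6V0D1, ATP6V0E1 and ATP6V1H lost their calls (adjusted p = 0.304, 0.171, 0.463 and 0.0573 by edgeR). Lefamulin then raised 10 and lowered 0, and retapamulin raised 11 and lowered 1. Over the 14207 genes tested the totals gave 2675 higher and 5823 lower with M5, 4385 and 5395 with lefamulin, and 3942 and 6586 with retapamulin. In the V0 sector, ATP6V0B, a proteolipid of the proton-carrying ring, had 54.9, 60.1 and 57 CPM in untreated libraries, 82.8, 86.5 and 84.1 with M5, 105, 108 and 110.2 with lefamulin and 114, 124 and 118 with retapamulin. Its groups did not overlap and ranked in that order from low to high. It rose with M5 (log2 fold change 0.56, SE 0.04, adjusted p = 3.5e-11 by edgeR), and had log2 fold changes of 0.35 for lefamulin (adjusted p = 4.3e-08) and 0.49 for retapamulin (adjusted p = 8.5e-11) over M5.

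ATP6V0D1 encodes the subunit that joins the ring to the central stalk. Its level was 72.1, 77.6 and 80.2 CPM in untreated libraries, 90.0, 85.2 and 87 with M5, 138, 127 and 135 with lefamulin and 139.8, 151 and 157 with retapamulin. The groups did not overlap and lay in that order. ATP6V0D1 rose over M5 with lefamulin (log2 fold change 0.61, SE 0.05, adjusted p = 2.9e-11 by edgeR) and with retapamulin (log2 fold change 0.77, SE 0.05, adjusted p = 2.1e-13). It also rose with M5 (log2 fold change 0.19, adjusted p = 0.0016), which on library totals was 0.07 (adjusted p = 0.171). ATP6V0C, the other ring proteolipid of the set, whose counts may be shared with pseudogenes, rose by 0.47 with M5, 0.11 with lefamulin and 0.22 with retapamulin, and on library totals the compound rises were not called (adjusted p = 0.186 and 0.0725). The lefamulin call of ATP6V0C was also lost without M5 replicate 1 or 3 or lefamulin replicate 1 or 3 (adjusted p = 0.0614 to 0.114).

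In the V1 sector, ATP6V1D, part of the central stalk, had 57.8, 57.3 and 60.1 CPM in untreated libraries, 80.0, 83.7 and 83.1 with M5, 114, 117 and 121 with lefamulin and 132, 131 and 129 with retapamulin. All groups were apart from each other and ranked in that order from low to high. M5 raised it (log2 fold change 0.49, SE 0.04, adjusted p = 8.6e-11 by edgeR), and it rose further with lefamulin (log2 fold change 0.51, SE 0.04, adjusted p = 1.3e-11) and retapamulin (log2 fold change 0.66, SE 0.04, adjusted p = 6.0e-14). ATP6V1E1, a peripheral stalk subunit, had 127, 137 and 136 CPM in untreated libraries, 138, 136 and 139 with M5, 211, 219 and 213 with lefamulin and 218, 224 and 231 with retapamulin. Untreated and M5 libraries overlapped, as did lefamulin and retapamulin libraries, and the second pair was well above the first. By limma on FPKM ATP6V1E1 was called lower with M5 than untreated, at -0.07 (adjusted p = 0.0366). ATP6V1E1 was 1.56-fold the M5 level with lefamulin (log2 fold change 0.64, SE 0.04, adjusted p = 5.2e-14 by edgeR) and 1.63-fold with retapamulin (log2 fold change 0.70, SE 0.04, adjusted p = 5.4e-15). ATP6V1A, the catalytic subunit, moved the least of the 6 V1 genes with lefamulin, at 0.09, and it was the V-ATPase gene that fell with M5, by 0.11 on the log2 scale. Its lefamulin call was lost without M5 replicate 1 or 2 or lefamulin replicate 1, 2 or 3 (adjusted p = 0.0761 to 0.194), and its M5 call without untreated replicate 3 or M5 replicate 1 or 2 (adjusted p = 0.0680 to 0.113). On library totals the lefamulin value was 0.04 and not called (adjusted p = 0.299 by edgeR). Limma on FPKM did not call it (adjusted p = 0.265 and 0.264), nor did edgeR without the filter on low counts (adjusted p = 0.109). The M5 call was also lost by edgeR without that filter (adjusted p = 0.0557) and in the fit on the 2 groups alone (adjusted p = 0.0594).

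The accessory subunits differed from each other. ATP6AP1, needed to assemble the pump, had 110.4, 111 and 110.0 CPM in untreated libraries, 115, 114 and 114 with M5, 178, 165 and 171 with lefamulin and 148, 165 and 164 with retapamulin. M5 libraries lay just above untreated libraries, and all compound libraries well above both. ATP6AP1 rose with lefamulin (log2 fold change 0.58, SE 0.04, adjusted p = 2.9e-12 by edgeR) and with retapamulin (log2 fold change 0.48, SE 0.04, adjusted p = 1.2e-10), and its log2 fold change of 0.05 with M5 was not called (adjusted p = 0.30). ATP6AP2, also known as the prorenin receptor, had 121, 133 and 126 CPM in untreated libraries, 131, 128 and 139.5 with M5, 142, 136 and 139 with lefamulin and 133, 137 and 139 with retapamulin. The M5, lefamulin and retapamulin libraries overlapped. Its log2 fold changes over M5 were 0.07 (95% interval -0.01 to 0.15) with lefamulin and 0.04 (95% interval -0.05 to 0.12) with retapamulin; neither was called, and the lefamulin value was called without M5 replicate 3 (adjusted p = 0.0351). With M5 over untreated it was called without untreated replicate 2 (adjusted p = 0.0288 by edgeR). The retapamulin value turned to -0.10 on library totals and was called lower there (adjusted p = 0.0222 by edgeR) and by limma on FPKM (adjusted p = 0.0223 and 0.0213).

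Per gene length, the 13 V-ATPase mRNAs were far from equal in level. In untreated cells they ran from 8.43 FPKM for ATP6V0A1 to 104 for ATP6V1E1, a ratio of 12.3, and with M5 from 8.75 for ATP6V0A1 to 112 for ATP6V0C. With lefamulin the ends were 10.3 and 149 FPKM and with retapamulin 11.6 and 147, with ATP6V0A1 lowest and ATP6V1E1 highest in each. ATP6V0A1 encodes a form of the large membrane subunit through which protons pass. Other forms, such as those of ATP6V0A2 and TCIRG1, are not among the 13 genes. The summed FPKM of the 13 genes was 633 untreated, 685 with M5, 862 with lefamulin and 855 with retapamulin. FPKM divide by library totals, so these sums carry no TMM scaling.

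**Figure D3:**
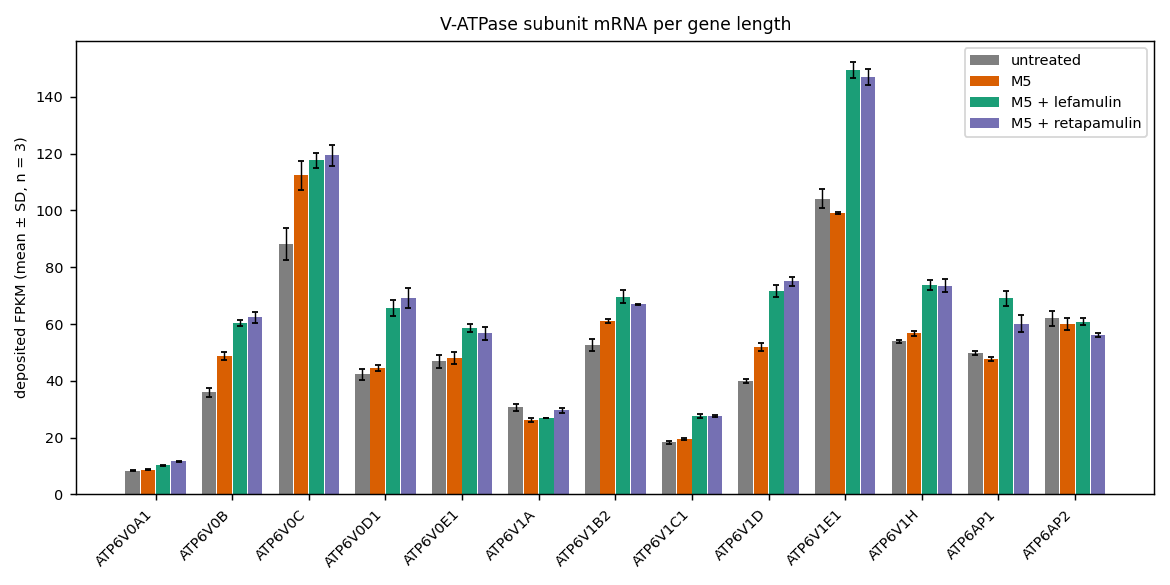
Deposited FPKM (y axis, from 0; bars are means of 3 libraries, error bars SD) of the 13 V-ATPase genes in the 4 groups. ATP6V1E1 and ATP6V0C are the tallest and ATP6V0A1 the shortest, and the compound bars stand above the M5 bar for most genes but not for ATP6AP2 with retapamulin.

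Of the 7 lysosomal enzymes and helpers, NEU1 and GLA changed most. NEU1 encodes the lysosomal sialidase. Its level was 53.2, 55.1 and 52 CPM in untreated libraries, 80.5, 76.3 and 77 with M5, 314, 313 and 313 with lefamulin and 245, 256 and 258 with retapamulin. The 3 lefamulin libraries were highest, the retapamulin libraries next, then M5 and untreated, and no groups overlapped. NEU1 was 4.02-fold the M5 level with lefamulin (log2 fold change 2.01, SE 0.04, adjusted p = 7.8e-24 by edgeR) and 3.25-fold with retapamulin (log2 fold change 1.70, SE 0.04, adjusted p = 1.5e-22), after a rise with M5 (log2 fold change 0.54, SE 0.04, adjusted p = 7.3e-12). GLA, the alpha-galactosidase that is missing in Fabry disease, had 62.6, 66.9 and 66.8 CPM in untreated libraries, 82.5, 85.7 and 82.2 with M5, 149, 145 and 148 with lefamulin and 129.9, 140.0 and 132 with retapamulin. Its groups had the same order as those of NEU1 and did not overlap. GLA rose with M5 (log2 fold change 0.35, SE 0.04, adjusted p = 6.7e-08 by edgeR), and over M5 with lefamulin (log2 fold change 0.82, SE 0.04, adjusted p = 2.6e-15) and retapamulin (log2 fold change 0.68, SE 0.04, adjusted p = 7.3e-14).

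The remaining enzyme-group genes varied in direction. PSAP rose by 0.62 with lefamulin and 0.67 with retapamulin over M5, and GRN, which encodes progranulin, the precursor of the granulins, by 0.55 and 0.61. GAA, the acid glucosidase of lysosomal glycogen, went the other way: it fell by 0.16 on the log2 scale with M5 and by a further 0.45 with retapamulin, while its value of -0.08 with lefamulin was not called by edgeR with TMM scaling. On library totals that lefamulin value was -0.12 and called lower (adjusted p = 0.0393 by edgeR), as it was by limma on FPKM (adjusted p = 0.0305 and 0.0301), and without untreated replicate 2 its M5 call was lost (adjusted p = 0.0537). ASAH1, the acid ceramidase, fell by 0.28 with M5 and rose over M5 by 0.19 with lefamulin and 0.09 with retapamulin; on library totals its retapamulin value was -0.05. The ASAH1 call with retapamulin was lost without M5 replicate 1 or 2 or retapamulin replicate 3 (adjusted p = 0.0536 to 0.127). HEXA, the alpha chain of beta-hexosaminidase, rose by 0.11 and 0.13 over M5, and the retapamulin value was -0.00584 on library totals. The lefamulin value was 0.06 on library totals and not called (adjusted p = 0.152 by edgeR). It was not called by limma on FPKM (adjusted p = 0.136 and 0.136) or by edgeR without the filter on low counts (adjusted p = 0.0528). The HEXA call was also lost without M5 replicate 1 or 2 or lefamulin replicate 1 (adjusted p = 0.0705 to 0.120) for lefamulin and without M5 replicate 2 (adjusted p = 0.0523) for retapamulin.

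Changes of the autophagy genes ranged from that of WIPI1, the largest of the set with each compound, to those of BECN1 and GABARAPL2, which were not called. SQSTM1 encodes p62, the receptor that carries ubiquitin-tagged cargo into autophagosomes. Its level was 281, 291 and 279 CPM in untreated libraries, 272, 273 and 267 with M5, 532, 498 and 535 with lefamulin and 793, 798 and 811 with retapamulin. M5 libraries were just below untreated libraries, lefamulin libraries lay well above both and retapamulin libraries were highest, with no overlap. SQSTM1 rose 1.93-fold with lefamulin over M5 (log2 fold change 0.95, SE 0.03, adjusted p = 2.4e-18 by edgeR) and 2.96-fold with retapamulin (log2 fold change 1.56, SE 0.03, adjusted p = 7.5e-23). M5 against untreated gave -0.07 (adjusted p = 0.070), not called, and -0.19 on library totals (adjusted p = 1.6e-05).

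ATG8 proteins are joined to the growing autophagosome membrane, where they bind receptors such as p62. MAP1LC3B, the best known of them as LC3B, had 74.1, 70.9 and 73.6 CPM in untreated libraries, 102, 95.5 and 104 with M5, 160.1, 168 and 162 with lefamulin and 179.7, 183 and 175 with retapamulin. The groups ranked in that order from low to high and did not overlap. MAP1LC3B rose with M5 (log2 fold change 0.46, SE 0.04, adjusted p = 3.7e-10 by edgeR), and over M5 with lefamulin (log2 fold change 0.70, SE 0.04, adjusted p = 4.1e-14) and retapamulin (log2 fold change 0.83, SE 0.04, adjusted p = 9.6e-16). Its counts may be shared with its near-identical copy MAP1LC3B2, so this gene is uncertain.

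GABARAPL1, an ATG8 protein of the GABARAP branch whose counts may be shared with a near-identical pseudogene, had 51.9, 59.5 and 56.9 CPM in untreated libraries, 52.6, 51.9 and 51.5 with M5, 92.9, 94.7 and 93.5 with lefamulin and 98, 102 and 100.3 with retapamulin. Untreated and M5 libraries overlapped, and the compound groups were far above them. GABARAPL1 was 1.80-fold the M5 level with lefamulin (log2 fold change 0.85, SE 0.04, adjusted p = 1.1e-14 by edgeR) and 1.92-fold with retapamulin (log2 fold change 0.94, SE 0.04, adjusted p = 1.0e-15). The fall of 0.11 with M5 (adjusted p = 0.041) was not called by DESeq2 (adjusted p = 0.0643) or with DESeq2's size factors in edgeR (adjusted p = 0.0586), or without untreated replicate 2 or 3 or M5 replicate 1, 2 or 3 (adjusted p = 0.0693 to 0.243). GABARAPL2, of the same branch, gave 0.06 (95% interval -0.05 to 0.16) with lefamulin and 0.08 (95% interval -0.03 to 0.18) with retapamulin over M5, and neither was called.

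WIPI1 had the largest rise of the 44 genes with either compound. It encodes a protein that reads phosphatidylinositol 3-phosphate on the forming autophagosome. Its level was 1.66, 1.19 and 1.32 CPM in untreated libraries, 2.91, 2.58 and 1.98 with M5, 29.3, 29.8 and 29.8 with lefamulin and 44.7, 44.6 and 43.8 with retapamulin. The untreated libraries were lowest and M5 libraries a little higher. Lefamulin libraries lay far above both and retapamulin libraries were highest, with no overlap. WIPI1 was 11.9-fold the M5 level with lefamulin (log2 fold change 3.57, SE 0.10, adjusted p = 3.4e-20 by edgeR) and 17.8-fold with retapamulin (log2 fold change 4.15, SE 0.09, adjusted p = 8.2e-22), after a rise with M5 (log2 fold change 0.84, SE 0.15, adjusted p = 3.0e-05).

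ULK1 encodes the kinase that starts autophagy. Its level was 32.2, 36 and 33.1 CPM in untreated libraries, 26.6, 27.4 and 27.1 with M5, 104, 95.9 and 97.8 with lefamulin and 155, 160.2 and 161 with retapamulin. M5 libraries were lowest and untreated libraries just above. Lefamulin libraries lay well above both and retapamulin libraries were highest, with no overlap. M5 lowered ULK1 by 0.32 on the log2 scale (SE 0.05, adjusted p = 5.2e-06 by edgeR). Over M5 it was 3.67-fold with lefamulin (log2 fold change 1.87, SE 0.05, adjusted p = 5.1e-21) and 5.87-fold with retapamulin (log2 fold change 2.55, SE 0.05, adjusted p = 6.5e-24). The other genes of this group changed less. UVRAG, a Beclin partner, rose by 0.63 and 0.72, ATG9A, a lipid scramblase of seed vesicles, by 0.27 and 0.29, and ATG16L1, which guides ATG8 conjugation to the membrane, by 0.27 and 0.37 with lefamulin and retapamulin. BECN1, which encodes Beclin, gave 0.03 (95% interval -0.05 to 0.12) with lefamulin and -0.00554 (95% interval -0.09 to 0.08) with retapamulin, and neither was called. On library totals BECN1 was called lower with retapamulin, at -0.14 (adjusted p = 0.00287 by edgeR), as it was by limma on FPKM (adjusted p = 0.00211 and 0.00198).

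CACGTG-type motifs were searched in promoters because TFEB, TFE3 and MITF, whose own mRNAs changed, are known to bind them. RefSeq promoters of build GRCh38.p14, from 250 bases before to 50 after each start, matched 33 of the 44 genes with 49 promoters. The motif TCACGTG, read on both strands, stood in 3.71% of all 35116 promoters and in 8 of the 49 (16.3%), those of RRAGC, LAMP1, MCOLN1, CLCN7, ATP6V0B, ATP6V0D1, GAA and NEU1. The core CACGTG, part of every such match, stood in 7.26% of all promoters and in 9 of the 49, CD63 being the addition. Such motifs are known from promoters of many lysosome and autophagy genes, so the choice of genes alone could give a share above that of all promoters. No match was found in these windows for WIPI1, ULK1, FLCN or SQSTM1. RRAGD, LAMP2, ATP6V0E1, ATP6V1A, ATP6V1B2, ATP6V1C1, ATP6V1H, HEXA, ASAH1, PSAP and UVRAG had no promoter to search. The 6 sequences below are the 200 bases before the start, 5′ to 3′ on the gene's strand, with TCACGTG on either strand in capitals; they were picked to set 4 genes that rose with both compounds beside LAMP1, which rose little, and GAA, which did not rise.
NEU1, chr6:31862822-31863021 (− strand): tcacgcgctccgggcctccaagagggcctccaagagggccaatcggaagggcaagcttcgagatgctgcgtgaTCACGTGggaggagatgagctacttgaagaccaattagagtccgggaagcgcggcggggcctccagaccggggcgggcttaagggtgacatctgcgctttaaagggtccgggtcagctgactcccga
RRAGC, chr1:38859773-38859972 (− strand): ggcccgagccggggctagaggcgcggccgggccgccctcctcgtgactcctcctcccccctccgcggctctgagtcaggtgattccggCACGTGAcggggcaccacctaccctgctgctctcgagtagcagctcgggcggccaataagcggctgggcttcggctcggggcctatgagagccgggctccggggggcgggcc
MCOLN1, chr19:7522424-7522623 (+ strand): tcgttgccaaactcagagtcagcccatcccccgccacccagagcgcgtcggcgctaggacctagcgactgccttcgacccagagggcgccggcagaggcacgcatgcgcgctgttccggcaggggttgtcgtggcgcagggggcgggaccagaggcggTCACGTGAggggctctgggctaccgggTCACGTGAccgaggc
ATP6V0D1, chr16:67481158-67481357 (− strand): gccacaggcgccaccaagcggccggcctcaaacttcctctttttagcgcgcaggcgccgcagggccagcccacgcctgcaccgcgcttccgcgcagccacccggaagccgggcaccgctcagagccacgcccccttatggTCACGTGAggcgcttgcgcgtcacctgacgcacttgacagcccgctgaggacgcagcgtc
LAMP1, chr13:113297039-113297238 (+ strand): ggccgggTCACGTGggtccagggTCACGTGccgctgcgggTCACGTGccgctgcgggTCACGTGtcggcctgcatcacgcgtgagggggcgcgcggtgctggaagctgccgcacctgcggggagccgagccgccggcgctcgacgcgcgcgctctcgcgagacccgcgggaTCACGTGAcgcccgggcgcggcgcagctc
GAA, chr17:80101381-80101580 (+ strand): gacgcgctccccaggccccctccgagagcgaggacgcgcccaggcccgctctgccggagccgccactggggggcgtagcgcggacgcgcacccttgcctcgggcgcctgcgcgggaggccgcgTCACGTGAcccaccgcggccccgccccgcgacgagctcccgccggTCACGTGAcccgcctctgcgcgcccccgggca

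Genes with a match changed by unlike amounts. RRAGC, LAMP1, MCOLN1, CLCN7, ATP6V0B, ATP6V0D1 and NEU1 were called higher than with M5 with both compounds, as was CD63, and GAA was not. Of all 44 genes, 36 were called higher with lefamulin and 37 with retapamulin. NEU1 and RRAGC hold a single match each and rose 4.02-fold and 2.65-fold with lefamulin over M5. LAMP1 holds several matches and rose 1.09-fold, and GAA, with more than 1 match as well, gave a log2 fold change of -0.08 with lefamulin and -0.45 with retapamulin. MCOLN1 rose by 0.76 and 0.78, CLCN7 by 0.60 and 0.50, ATP6V0B by 0.35 and 0.49 and ATP6V0D1 by 0.61 and 0.77. No binding was measured in these libraries, and a match is a description of the letters only.

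Lefamulin and retapamulin were compared directly as 1 pair, each with M5; no source used here says whether their doses matched. Of the 44 genes 6 were higher with lefamulin, 18 higher with retapamulin and 20 were not called, where 18.8% of all genes tested were higher with lefamulin and 21.2% with retapamulin. None of the 44 differed 2-fold by edgeR, against 2.51% of all genes that were at least 2-fold higher with lefamulin and 0.739% with retapamulin, and the median log2 difference, lefamulin minus retapamulin, was -0.09 against 0.01 over all genes. This split also moved with scaling: on library totals 10 genes were higher with lefamulin and 12 with retapamulin, and the median over all genes was 0.10. Of the 14207 genes tested, 4436 were then higher with lefamulin and 1660 with retapamulin. The share of all called genes that was higher with lefamulin was 47%, 36.8% with DESeq2's size factors and 72.8% on library totals.

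The 12 genes higher with retapamulin under the totals as well were TFE3, MITF, RRAGC, FLCN, CD63, CD68, SCARB2, ATP6V0A1, ATP6V1A, SQSTM1, WIPI1 and ULK1. CD68 differed most, by -0.95 (95% interval -1.06 to -0.84) on the log2 scale (adjusted p = 1.2e-12 by edgeR), followed by ULK1 at -0.68 (95% interval -0.76 to -0.59), SQSTM1 at -0.62 (95% interval -0.68 to -0.55) and WIPI1 at -0.58 (95% interval -0.73 to -0.44). The retapamulin libraries lay above all lefamulin libraries for each of these 4 genes. In the other direction, TPCN1 was higher with lefamulin by 0.79 (95% interval 0.70 to 0.88) (adjusted p = 4.5e-13 by edgeR), GAA by 0.38 (95% interval 0.27 to 0.49), NEU1 by 0.31 (95% interval 0.24 to 0.38) and GLA by 0.14 (95% interval 0.06 to 0.22). These 4 genes encode a channel and 3 hydrolases, and their lefamulin libraries lay above all retapamulin libraries. ATP6AP1 and ASAH1 were called higher with lefamulin by smaller amounts, 0.11 and 0.11, and neither was called with DESeq2's size factors (adjusted p = 0.155 and 0.107). The calls were also lost without lefamulin replicate 1 or 3 or retapamulin replicate 1 (adjusted p = 0.0754 to 0.247) for ATP6AP1 and without lefamulin replicate 2 or 3 or retapamulin replicate 1 or 2 (adjusted p = 0.0547 to 0.0802) for ASAH1.

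Differences between the compounds were small for MCOLN1, PSAP, GABARAPL1 and ATP6V1E1, which rose clearly over M5. Neither these genes nor TFEB, LAMP1 and LAMP2, given after them, were called by edgeR with TMM scaling and all libraries. MCOLN1 differed by -0.01 (95% interval -0.14 to 0.12), PSAP by -0.05 (95% interval -0.11 to 0.01), GABARAPL1 by -0.09 (95% interval -0.18 to -0.00709) and ATP6V1E1 by -0.07 (95% interval -0.14 to 0.00631). With DESeq2's size factors, however, PSAP, GABARAPL1 and ATP6V1E1 were called lower with lefamulin, at -0.08 (adjusted p = 0.0337 by edgeR), -0.13 (adjusted p = 0.0161) and -0.10 (adjusted p = 0.0233), and DESeq2 called them too (adjusted p = 0.0182, 0.0132 and 0.0116). GABARAPL1 was also called in the fit on the 2 groups alone (adjusted p = 0.0359). TFEB differed by -0.49 (95% interval -0.95 to -0.03), a wide interval at its low counts, and was called without lefamulin replicate 1 (-0.72, adjusted p = 0.0256 by edgeR). LAMP1 and LAMP2 differed by -0.02 (95% interval -0.09 to 0.04) and 0.02 (95% interval -0.05 to 0.09). On library totals LAMP2 was called higher with lefamulin, by 0.11 (adjusted p = 0.00922 by edgeR), as it was by limma on FPKM (adjusted p = 0.0153 and 0.0155).

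**Figure D4:**
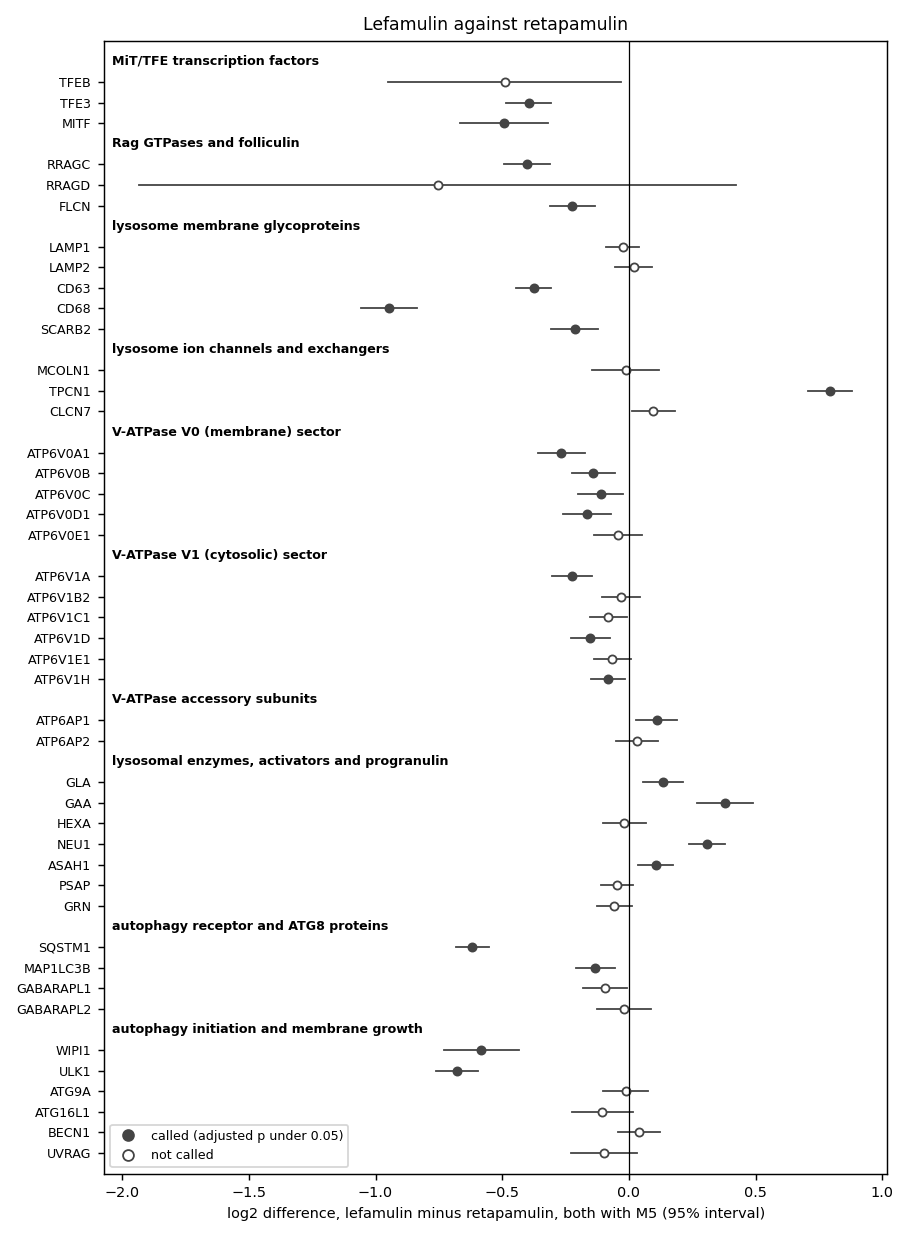
Log2 difference, lefamulin minus retapamulin (x axis, edgeR, with 95% interval), of each of the 44 genes by role; both groups also had M5. Filled points were called: CD68, ULK1, SQSTM1 and WIPI1 lie farthest to the left among them and TPCN1, GAA and NEU1 farthest to the right.

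Against untreated cells, 36 of the 44 genes were higher and 4 lower with M5 and lefamulin, where 36.9% of all genes rose and 37.1% fell. With M5 and retapamulin 38 were higher and 5 lower, against 37.6% and 40.9%. The 38 include RRAGD, which passed the filter on low counts only through compound libraries. The median log2 fold changes of the 44 genes were 0.67 and 0.72. TFEB, MITF, GAA and ASAH1 were below untreated in both, and TPCN1 was below it with retapamulin (-0.48) and above it with lefamulin (0.32). ULK1, which M5 had lowered, was 2.93-fold the untreated level with lefamulin and 4.70-fold with retapamulin.

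Other genes of the same pathways were counted by edgeR calls as above. These counts stand beside shares over all genes tested of 28.3% higher and 26.9% lower with M5, 33.6% and 34.3% with lefamulin, and 34.1% and 38.0% with retapamulin. Of 35 other autophagy genes tested, M5 raised 16 and lowered 6, lefamulin raised 25 and lowered 4 over M5 (median log2 fold change 0.34) and retapamulin raised 25 and lowered 5 (median 0.48). On library totals M5 raised 13 and lowered 10 of them, where 2675 of the 14207 genes tested rose and 5823 fell. TMEM41B, a scramblase of the endoplasmic reticulum, rose by 1.40 and 1.59, RUBCN, an autophagy inhibitor, by 1.18 and 1.62, and OPTN, a receptor like p62, by 1.11 and 1.28. STX17, a fusion protein of autophagosomes, fell by 0.33 and 0.47.

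The remaining groups were mixed. M5 raised 2 and lowered 3 of the other V-ATPase subunits, 5 and 10 of the enzymes, 8 and 7 of the membrane proteins and 4 and 8 of the nutrient-sensing genes. These M5 counts moved with scaling. On library totals 2 rose and 4 fell among the V-ATPase subunits, 3 and 16 among the enzymes, and 7 and 11 among the membrane proteins. Among the nutrient-sensing genes 1 rose and 13 fell, while 2 rose with TMM scaling without untreated replicate 3. Over the 14207 genes tested, 2675 rose and 5823 fell with M5 on library totals. Falls among the enzymes and among the nutrient-sensing genes with either compound, counted next, were no more frequent than over all genes tested. Of 10 other V-ATPase subunits tested, 3 rose and 1 fell with lefamulin, and 4 rose and 3 fell with retapamulin; the stalk subunit ATP6V1G1 rose by 0.52 and 0.57, and TCIRG1, the osteoclast form of the large membrane subunit, fell by 0.30 with retapamulin. On library totals 2 of these subunits fell with lefamulin and 2 rose with retapamulin. Of the 14207 genes tested, 5395 then fell with lefamulin and 3942 rose with retapamulin. With lefamulin 0 of the subunits fell by edgeR without M5 replicate 1 or lefamulin replicate 2 or 3. ATP6V0E2 was the gene that lost its call (adjusted p = 0.0519, 0.0932 and 0.0684 by edgeR). Of 27 other lysosomal enzymes and activators 13 rose and 8 fell with lefamulin, and 12 rose and 10 fell with retapamulin. Here IDS, an iduronate sulfatase, rose by 1.00 and 1.33, while SGSH, the heparan sulfamidase, fell by 0.95 and 1.21. Of 21 other lysosome membrane proteins 9 rose and 3 fell with lefamulin, and 9 rose and 9 fell with retapamulin. Here the sialic acid exporter SLC17A5 rose by 1.00 and 1.60, while the more abundant LAPTM4B gave -0.35 and -0.52. Of 24 mTORC1 and nutrient-sensing genes 11 rose and 7 fell with each compound, and without M5 replicate 1 the falls with lefamulin numbered 4. FNIP1 and FNIP2, the folliculin partners, rose by 1.10 and 0.94 with lefamulin and 1.28 and 1.39 with retapamulin, and MLST8, an mTORC1 subunit, fell by 0.81 and 0.92.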

How the data were processed

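No source used here gives RNA selection, strandedness or the genome build. The submitters' processing notes name HISAT2 and HTSeq. The deposited count table holds whole-number counts for 22545 gene symbols and 12 libraries with no normalization. The deposited FPKM were recomputed as counts over a constant length per gene and the library's total, which held for all 20422 genes with counts in 2 or more libraries (coefficient of variation under 0.001). No pair of libraries was identical.

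Counts were tested in edgeR 4.0.16 (R 4.3.3) with filterByExpr, TMM scaling and glmQLFit/glmQLFTest over all 12 libraries, with 1 mean per group. Adjustment was by Benjamini-Hochberg over the 14207 genes tested in each of 6 comparisons. The script was tested on simulated counts. Intervals are 95%. Alternatives were DESeq2 1.42.0 and its size factors, library totals, no filter, limma 3.58.1 on log2(FPKM + 1) and log2(FPKM + 0.1), fits on the 2 groups compared, a replicate block, and each library left out.

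Values in every library are given for the 2 genes of each of 10 roles with the largest change, and for TFEB, LAMP1, SQSTM1 and MAP1LC3B. Levels or intervals of further genes were added after their values were seen. The genes and lists were chosen with earlier results of these data known. Of the other pathway genes, those named were among the largest called changes of their list with a mean of at least 5 CPM. Replicates are not said to be separate cultures, so p-values may measure technical spread only.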

Additional observations from a re-analysis of the deposited data

How the results depend on the processing

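The 3 settings that use no composition scaling (library totals, and limma on log2(FPKM + 1) and log2(FPKM + 0.1), given in this order) moved several counts. For M5 against untreated they called 16, 17 and 16 of the 44 genes higher in place of 26 and 10, 11 and 11 lower in place of 6, and over all genes 2675, 2574 and 2619 higher in place of 4022 and 5823, 5771 and 5668 lower in place of 3817. Retapamulin against M5 had 5, 5 and 5 lower in place of 3, and retapamulin against untreated 9, 9 and 9 lower in place of 5. Over all genes the lower calls numbered 6586, 6367 and 6482 in place of 5404, and 7657, 7555 and 7580 in place of 5817. For lefamulin against retapamulin they called 10, 10 and 10 of the 44 higher with lefamulin in place of 6, and over all genes 4436, 4171 and 4289 higher in place of 2672 and 1660, 1593 and 1539 lower in place of 3017. These settings omit the composition factor by construction. Direction was reversed under them, as log2 values in the same order, for M5 against untreated for LAMP1 (-0.00993, -0.00976, -0.00981), ATP6V1E1 (-0.0692, -0.0698), PSAP (-0.0740, -0.0740, -0.0743), for retapamulin against M5 for ATP6AP2 (-0.0974, -0.0952, -0.0967), HEXA (-0.00584, -0.00522, -0.00549), ASAH1 (-0.0487, -0.0477, -0.0488), for lefamulin against retapamulin for ATP6V1H (0.00621, 0.00610, 0.00618), for lefamulin against untreated for SCARB2 (-0.00519, -0.00446, -0.00467), ATP6AP2 (-0.0276, -0.0266, -0.0269), HEXA (-0.145, -0.137, -0.144) and for retapamulin against untreated for ATP6V1A (-0.0502, -0.0479, -0.0493), ATP6AP2 (-0.148, -0.144, -0.147), HEXA (-0.215, -0.203, -0.214), GABARAPL2 (-0.126, -0.124, -0.126), BECN1 (-0.123, -0.119, -0.122). ATP6V1E1 reversed under limma only. Leaving out each library in turn gave 25 to 29 higher and 4 to 7 lower for M5 against untreated, 33 to 37 higher and 2 lower for lefamulin against M5, 36 to 37 higher and 3 lower for retapamulin against M5, 4 to 6 higher and 15 to 17 lower for lefamulin against retapamulin, 36 to 37 higher and 3 to 4 lower for lefamulin against untreated, 35 to 38 higher and 5 lower for retapamulin against untreated.

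No label ties samples of the same number to a common culture, and the correlations of same-numbered deviations ran from -0.144 to 0.184, so they were not taken as pairing the samples. With the replicate block the calls were 26 higher and 6 lower for M5 against untreated, 36 higher and 2 lower for lefamulin against M5, 37 higher and 3 lower for retapamulin against M5, 6 higher and 17 lower for lefamulin against retapamulin, 37 higher and 4 lower for lefamulin against untreated, 38 higher and 5 lower for retapamulin against untreated. The rises of WIPI1, ULK1, RRAGC, FLCN, NEU1, SQSTM1, CD63, CD68, MAP1LC3B, GABARAPL1, MCOLN1 and GLA and the falls of TFEB and TPCN1 with both compounds against M5 kept their direction and their call under every alternative run. Depth limits RRAGD, at 1 to 15 counts per library, and to a lesser degree TFEB. mRNA was measured, so protein levels, lysosome number, pH and autophagic flux are not known from these data.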

Other observations

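Among the endothelial markers counted as a check, CDH5, which encodes VE-cadherin, had 571 to 628 counts per untreated library, 4351 to 4557 with M5, 4177 to 4243 with lefamulin and 3237 to 3890 with retapamulin, while PECAM1 had 0 to 1 counts in any library. VWF had 15 to 26 counts per library untreated, 1 to 3 with M5, 72 to 97 with lefamulin and 64 to 88 with retapamulin. The summed level of the 5 fibroblast markers was 7 to 7.89 CPM untreated, 5.61 to 6.86 with M5, 15.4 to 16.9 with lefamulin and 9.31 to 11.1 with retapamulin. Nearly all of it was COL1A1, with 188 to 611 counts per library, while COL3A1, DCN and LUM had 0 to 1 counts. LIPA, the acid lipase that frees cholesterol in lysosomes, fell with M5 by 0.94 on the log2 scale (adjusted p = 1.7e-18 by edgeR) and rose over M5 by 0.75 with lefamulin (adjusted p = 1.3e-16) and 0.69 with retapamulin (adjusted p = 5.2e-16). SESN3, a sestrin that restrains mTORC1, likewise gave -1.39 with M5 (adjusted p = 1.6e-13 by edgeR), 0.67 with lefamulin (adjusted p = 9.7e-08) and 0.48 with retapamulin (adjusted p = 1.5e-05).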
